A study of Rattus norvegicus with 30 samples.

Results

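Immediate early genes were followed in the lung of neonatal rats in a hyperoxia model of bronchopulmonary dysplasia, a lasting lung injury of infants born preterm and given oxygen. The 10 genes, Egr1, Egr2, Egr3, Nr4a1, Fos, Fosb, Jun, Junb, Atf3 and Dusp1, were chosen by name as classical members of the class, out of 35224 genes in the deposited count table. The choice was made with earlier results of these data known. All 10 were among the 17571 genes with enough counts to be tested, so no member was lost to the filter on low counts. Whole lung was sequenced as mRNA in 30 libraries, which form 10 groups of 3: oxygen at 85% or room air at 21%, each on postnatal days 1, 3, 7, 10 and 14. Pups were allocated at random after birth, exposure began within the first day of life, and dams were swapped between the arms daily. The labels name neither a strain nor a genetic change for any group. They state 12 rats per arm, whereas each arm has 15 libraries, and nothing states whether a group's libraries are separate animals. The p-values therefore measure only the spread from library to library, which may be technical. Lung pieces were washed in cold PBS and frozen in liquid nitrogen, and no label gives the time from death to freezing.

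Immediate early genes are switched on within minutes of a growth factor, cytokine, stretch or stress signal, without new protein synthesis, and their transcripts are short-lived. ERK, JNK and p38 kinases act on factors already bound at their promoters, chiefly serum response factor with its Elk partners at CArG boxes and CREB at cyclic AMP response elements. Their products are transcription factors (the zinc finger Egr proteins, the nuclear receptor Nr4a1, the Fos and Jun proteins that pair as AP-1, and the stress-induced Atf3) or feedback enzymes such as the phosphatase Dusp1. In lung, Egr1 and the AP-1 proteins are known to respond to oxidant injury, stretch and inflammation, and the same transcripts are also known to rise while tissue is being handled.

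The promoters of 4 members are shown as examples that carry elements through which this class is known to be switched on. Junb also carried 1 such element and is not shown. RefSeq promoter sequence on the rat assembly GRCr8 was matched for 6 of the 10 members, Egr1, Egr2, Nr4a1, Fosb, Junb and Dusp1, and the other members were Egr3, Fos, Jun and Atf3. Each line gives the 250 bases before the start of the gene, 5′ to 3′ on the gene's strand, with CArG boxes and every TGACG (the core of the cyclic AMP response element, on either strand, so also CGTCA) in capitals. The windows lie at chr18:26736828-26737077 (plus strand) for Egr1, chr20:21054442-21054691 (minus) for Egr2, chr7:134259888-134260137 (plus) for Nr4a1 and chr10:17184603-17184852 (plus) for Dusp1.
Egr1: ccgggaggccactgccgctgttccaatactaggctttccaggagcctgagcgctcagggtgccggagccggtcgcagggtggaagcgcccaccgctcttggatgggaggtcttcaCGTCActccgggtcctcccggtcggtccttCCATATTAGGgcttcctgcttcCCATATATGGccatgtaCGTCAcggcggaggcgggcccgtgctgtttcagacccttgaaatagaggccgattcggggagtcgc
Egr2: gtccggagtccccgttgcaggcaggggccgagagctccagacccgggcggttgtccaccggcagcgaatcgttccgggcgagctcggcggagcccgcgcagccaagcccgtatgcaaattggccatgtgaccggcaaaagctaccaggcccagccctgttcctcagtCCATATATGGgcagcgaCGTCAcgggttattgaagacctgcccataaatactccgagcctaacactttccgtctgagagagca
Nr4a1: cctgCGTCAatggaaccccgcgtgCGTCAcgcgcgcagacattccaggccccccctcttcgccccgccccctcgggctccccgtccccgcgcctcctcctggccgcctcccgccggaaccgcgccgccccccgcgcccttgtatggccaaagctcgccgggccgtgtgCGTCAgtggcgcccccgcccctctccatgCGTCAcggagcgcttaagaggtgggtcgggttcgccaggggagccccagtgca
Dusp1: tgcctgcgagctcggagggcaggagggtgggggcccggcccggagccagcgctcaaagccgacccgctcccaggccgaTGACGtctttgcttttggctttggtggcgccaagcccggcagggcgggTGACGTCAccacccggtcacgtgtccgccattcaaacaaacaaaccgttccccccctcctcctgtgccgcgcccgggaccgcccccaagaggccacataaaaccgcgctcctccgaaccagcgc

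The Egr1 window held 2 CArG boxes, at 105 to 96 and at 83 to 74 bases before the start, and Egr2 held 1, at 83 to 74 bases. A CArG box was found in 1.5% of the 33469 rat promoters of the same length. TGACG on either strand was found in 5 of the 6 members and in 18.2% of all promoters: 4 times in Nr4a1, 3 times in Dusp1, 2 times in Egr1 and 1 time each in Egr2 and Junb. In Dusp1 a pair of these overlap in the full palindrome TGACGTCA, at 124 to 117 bases before the start, which 1.59% of promoters held. The Egr protein motif GCGNGGGCG was found in Nr4a1 alone of the 6 (4.29% of promoters, both strands), and the AP-1 motif TGANTCA in 0 of the 6 (6.34%). These matches describe the letters in the windows, and no binding was measured.

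Counts per library totalled 14951463 to 18074590. Levels are CPM, counts divided by the TMM-scaled library size, differences are log2 of the 85%-labelled over the 21%-labelled group, and calls of higher or lower need an adjusted p under 0.05 (edgeR's quasi-likelihood test, adjusted by Benjamini and Hochberg over all genes tested) and a size of 0.5 or more. Mitochondrially encoded genes took 2.65% to 19.1% of a library's counts, and 4 libraries were above 6%: 85%-labelled day 1 replicates 1 and 3, and replicate 3 of both arms at day 3. The check of the treatment labels went against them. Cdkn1a and Gdf15, both known to rise in hyperoxic lung, were called lower in the 85%-labelled libraries at day 10 (-2.50 and -5.35) and day 14 (-3.87 and -4.76). At day 7, 1 of the 2 was called lower (-4.21 to -1.26). At day 3 neither was called (-1.90 to -0.67), though both had an unadjusted p under 0.05, and at day 1 neither was (-0.01 to 0.42). The arms are therefore named by their labels throughout, and every direction rests on those labels.

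Expressed per length, as the authors' deposited FPKM, the members spanned a wide range of mean levels across the 30 libraries. Dusp1 was highest at 105 FPKM, followed by Jun at 90.8, Junb at 49.0, Nr4a1 at 29.6 and Egr1 at 13.8. Fos stood at 7.66 and Atf3 at 5.86 FPKM. Fosb, Egr2 and Egr3 were low, at 1.43, 1.06 and 0.513 FPKM, so their counts are smaller and their relative error is larger.

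**Figure D1:**
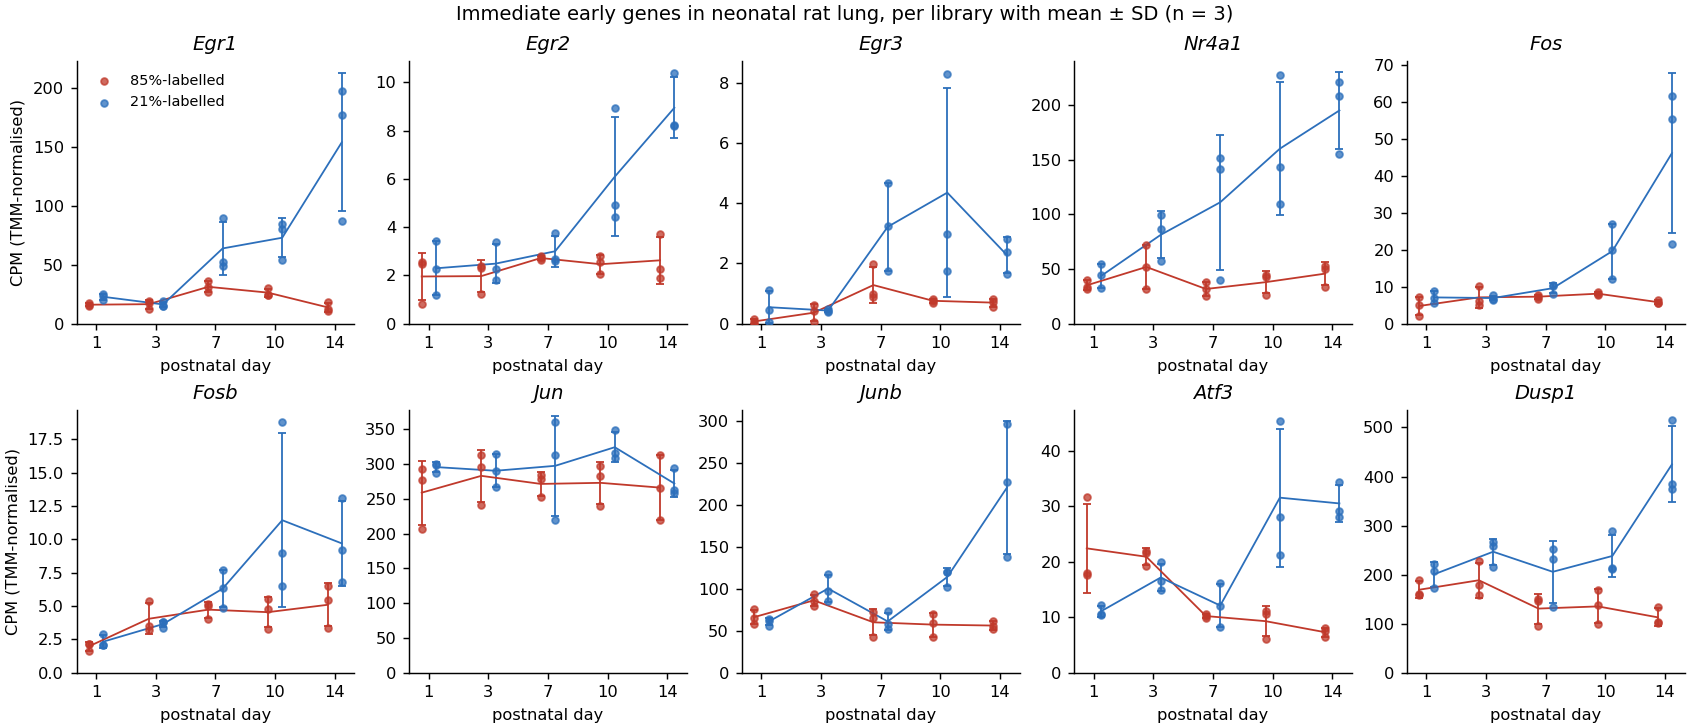
CPM of each immediate early gene (y axis, linear, from 0) by postnatal day (x axis). Points are single libraries, the line joins group means and bars are SD (n = 3), in red for the 85%-labelled and in blue for the 21%-labelled arm. At day 14 the arms are separate for every gene except Jun, and at day 10 they are separate for all 10.

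At day 14 most of these genes stood several-fold lower in the 85%-labelled than in the 21%-labelled lungs. Of the 10 members, 8 were called lower and 0 higher, where 10.8% of all tested genes were called lower. The libraries of the arms did not overlap for 9 members, all lower with the 85% label, against 25.1% of all genes with that separation. The members' median difference was -1.94, against 0.0096 over all genes tested. Summed over the members, the level was 436 to 605 CPM in the 85%-labelled and 1141 to 1641 CPM in the 21%-labelled libraries. In bulk tissue, fewer cells that express a gene and less RNA per cell cannot be told apart.

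Among the Egr zinc finger factors, Egr1 (ENSRNOG00000019422, chromosome 18, 27657628 to 27661429, plus strand, in the coordinates of the deposited table) showed the widest gap. Its 3 85%-labelled libraries of day 14 held 18.5, 12.1 and 11.1 CPM and its 3 21%-labelled libraries 177, 87.3 and 198 CPM. The 21%-labelled libraries were all several times above the highest of the other arm, and replicate 2 stood below the other two. The difference was -3.47 (SE 0.29, adjusted p = 1.49e-08), an 11.1-fold lower level.

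Egr2 (ENSRNOG00000000640, chromosome 20, 22454463 to 22459025, minus strand) stood at 3.71, 2.27 and 1.89 against 10.4, 8.24 and 8.19 CPM. The arms were apart at these low levels, by -1.77 (SE 0.40, adjusted p = 0.0020). Egr3 (ENSRNOG00000017828, chromosome 15, 51756736 to 51760722, plus strand) stood at 0.719, 0.821 and 0.554 against 2.38, 1.64 and 2.81 CPM. Its libraries did not overlap either, but the difference of -1.70 (SE 0.66) missed the threshold (adjusted p = 0.061). DESeq2 called it, at an adjusted p of 0.037.

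Nr4a1, the nuclear receptor also known as Nur77 (ENSRNOG00000007607, chromosome 7, 142905758 to 142920216, plus strand), held 53.0, 50.3 and 33.9 CPM in the 85%-labelled and 155, 208 and 221 CPM in the 21%-labelled libraries of day 14. Each 21%-labelled library was far above the other arm. The difference was -2.09 (SE 0.38, adjusted p = 2.6e-04).

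The AP-1 genes split. Fos (ENSRNOG00000008015, chromosome 6, 109300433 to 109303299, plus strand) held 6.47, 5.49 and 5.54 CPM in the 85%-labelled and 55.5, 21.5 and 61.6 CPM in the 21%-labelled libraries. Replicate 2 of the 21%-labelled arm was again the low one, as for Egr1, and still stood above the other arm. The difference was -2.98 (SE 0.38, adjusted p = 3.0e-06). Junb, a Jun protein that can restrain Jun (ENSRNOG00000042838, chromosome 19, 26092974 to 26094756, minus strand), held 61.8, 55.3 and 51.6 against 227, 138 and 296 CPM, a difference of -1.97 (SE 0.23, adjusted p = 7.4e-07). The 85%-labelled libraries were close together and the 21%-labelled ones spread over a wider range without reaching them.

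Fosb (ENSRNOG00000046667, chromosome 1, 80214494 to 80221710, minus strand) stood at 5.45, 6.50 and 3.33 against 6.77, 13.1 and 9.23 CPM. Its arms nearly touched, and the difference of -0.93 (SE 0.33, adjusted p = 0.044) was the weakest of the 8 calls. It lost the call in 7 of 13 alternatives, among them leaving out 85%-labelled replicate 1 (adjusted p = 0.080) or 3 (0.19), or 21%-labelled replicate 2 (0.20) or 3 (0.077). Over the 13 alternatives its adjusted p ran from 0.032 to 0.20.

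Jun, the central AP-1 partner (ENSRNOG00000026293, chromosome 5, 114011189 to 114014277, minus strand), was the exception. It held 314, 266 and 219 CPM in the 85%-labelled and 263, 258 and 295 CPM in the 21%-labelled libraries. The arms overlapped fully, and the difference was -0.03 (SE 0.16, adjusted p = 0.91). Without 85%-labelled replicate 3 or 21%-labelled replicate 3 its sign turned, at 0.08 and 0.03.

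Atf3, a stress-induced factor that often represses its targets (ENSRNOG00000003745, chromosome 13, 109817728 to 109849632, minus strand), held 7.49, 8.02 and 6.38 against 28, 29.1 and 34.4 CPM at day 14. Both arms were tight and far apart, by -2.06 (SE 0.27, adjusted p = 5.4e-06). Dusp1, the phosphatase that turns off p38, JNK and ERK (ENSRNOG00000003977, chromosome 10, 16970626 to 16973418, plus strand), held 134, 102 and 103 against 385, 376 and 514 CPM. Its arms were separate too, by -1.91 (SE 0.23, adjusted p = 1.5e-06).

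**Figure D2:**
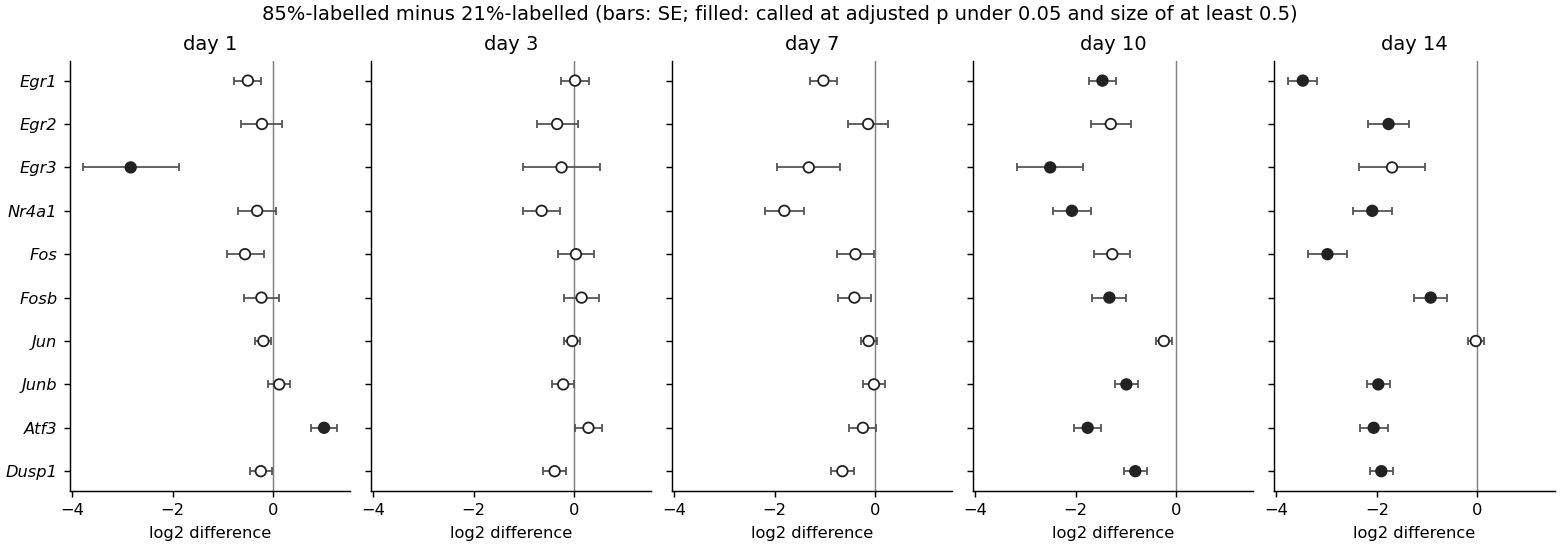
Log2 difference of the 85%-labelled from the 21%-labelled arm (x axis) for each gene (y axis) on each day, with bars of 1 SE. Filled points are called, 7 lower at day 10 and 8 lower at day 14, and the point of Jun is unfilled in every panel.

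At day 10 the same direction was seen with smaller sizes. Of the 10 members, 7 were called lower and 0 higher, against 1.18% of all genes called lower. All 10 had 85%-labelled libraries entirely below the 21%-labelled ones, against 8.17% of all genes. The median difference was -1.32, against -0.0047 over all genes, and the summed level was 458 to 619 CPM against 879 to 1137 CPM. The 2 days have no library in common, and 6 members were called lower on both, which is 85.7% of their day 10 calls and 75% of their day 14 calls. Of all tested genes 0.928% were called lower on both days, which is 78.7% of all genes called lower at day 10 and 8.63% of those at day 14. Fitted on the 6 libraries of day 10 alone, 0 members were called, and 9 genes of the whole table.

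Nr4a1 stood at 26.6, 42.3 and 44.8 CPM in the 85%-labelled and 110, 143 and 228 CPM in the 21%-labelled libraries of day 10, a difference of -2.08 (SE 0.38, adjusted p = 0.0029). Atf3 stood at 6.16, 11.1 and 10.6 against 21.2, 28.1 and 45.3 CPM, a difference of -1.76 (SE 0.27, adjusted p = 6.0e-04). Egr1 stood at 30.1, 24.5 and 24.3 against 80.1, 53.9 and 84.9 CPM, a difference of -1.47 (SE 0.27, adjusted p = 0.0027). For these 3 genes the arms were well separated, and the calls held in every alternative except the fit on the day's 6 libraries, where the adjusted p rose to 0.11, 0.17 and 0.090.

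The other 4 calls of day 10 rested on more fragile gaps. Junb stood at 42.2, 70.3 and 59.5 against 102, 121 and 120 CPM (-0.99, SE 0.22, adjusted p = 0.013), and Egr3 at 0.829, 0.765 and 0.681 against 2.99, 1.76 and 8.30 CPM (-2.51, SE 0.66, adjusted p = 0.034). Fosb stood at 3.32, 5.54 and 4.77 against 8.97, 6.51 and 18.8 CPM (-1.33, SE 0.34, adjusted p = 0.029), and Dusp1 at 99.0, 139 and 168 against 214, 212 and 288 CPM (-0.82, SE 0.23, adjusted p = 0.047). Replicate 3 of the 21%-labelled arm was the highest library for Egr3, Fosb and Dusp1, and replicate 1 of the 85%-labelled arm the lowest for Junb, Fosb and Dusp1. Without either of these libraries, 3 members were called.

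Without 21%-labelled replicate 3 the difference was -1.64 for Egr3 (adjusted p = 0.24), -0.76 for Fosb (0.27), -0.94 for Junb (0.070) and -0.64 for Dusp1 (0.22). Without 85%-labelled replicate 1 it was -2.56 (0.11), -1.13 (0.16), -0.80 (0.097) and -0.62 (0.26) for the same genes. Egr3 also lost the call without 85%-labelled replicate 2 or 3 (adjusted p = 0.083 and 0.14), Fosb without replicate 3 of that arm (0.092), and Dusp1 without 85%-labelled replicate 2 (0.090) or 21%-labelled replicate 1 or 2 (0.084 and 0.059). The marker sums of skeletal muscle and squamous epithelium stood apart in 85%-labelled replicate 1, at 1575 and 197 CPM against 3.34 to 12.4 and 2.46 to 6.63 CPM in the day's other 5 libraries.

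Fos, Egr2 and Jun were not called at day 10. Fos stood at 8.47, 7.84 and 8.06 against 19.99, 12.1 and 26.9 CPM (-1.27, SE 0.36, adjusted p = 0.051), and Egr2 at 2.55, 2.80 and 2.04 against 4.92, 4.42 and 8.93 CPM (-1.30, SE 0.40, adjusted p = 0.075). Both fell just short of the threshold, and DESeq2 called both, at 0.014 and 0.021. Jun stood at 239, 283 and 297 against 316, 349 and 308 CPM (-0.25, SE 0.16, adjusted p = 0.51), a gap that is small beside its level.

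At day 7 edgeR called 0 of the 10 members, and 0.0854% of all genes. At an unadjusted p under 0.05 there were 4 members, Nr4a1, Egr1, Dusp1 and Egr3, among 2976 genes. DESeq2 called 2 members, Nr4a1 and Egr1, among 220 genes, where edgeR called 15 genes. Nr4a1 stood at 38.1, 32.1 and 24.9 CPM in the 85%-labelled and 142, 39.8 and 152 CPM in the 21%-labelled libraries (-1.81, SE 0.38, adjusted p = 0.062). Replicate 2 of the 21%-labelled arm lay next to the other arm, and without it the difference was -2.17 (adjusted p = 0.0034). Egr1 stood at 35.9, 26.6 and 31.4 against 49.2, 52.5 and 89.8 CPM (-1.03, SE 0.27, adjusted p = 0.098). The arms did not overlap for Nr4a1, Egr1 and Fos, 3 members of 10, where 16.6% of all genes had that order.

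At day 3 edgeR called 0 of the 10 members, DESeq2 called 0, and 0 had an unadjusted p under 0.05, where 0.393% of all genes were called and 1311 had such a p. The members' differences ran from -0.65 for Nr4a1 to 0.29 for Atf3. The libraries of the arms overlapped for all 10. Of all genes, 5.81% had the 85%-labelled libraries entirely lower and 6.99% entirely higher.

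At day 1, 1 member was called higher and 1 lower, against 20.6% and 20.8% of all genes. The arms overlapped for 8 members and were apart for Atf3 (85% label higher) and Egr1 (85% label lower). Of all genes, 26% had the first order and 27.1% the second. Egr1 held 15.8, 17.6 and 14.9 against 19.8, 25.1 and 23.4 CPM. It was not called by edgeR (-0.50, SE 0.27, adjusted p = 0.13). Atf3 was higher, with 31.6, 18.0 and 17.6 CPM in the 85%-labelled against 10.5, 10.5 and 12.2 CPM in the 21%-labelled libraries (1.01, SE 0.27, adjusted p = 0.0041). The 85%-labelled libraries were all above the other arm, and replicate 1 was far the highest. That library also had the highest mitochondrial share, at 19.1%, beside 5.31% and 11.5% in replicates 2 and 3 and 2.71% to 3.03% in the 21%-labelled libraries of the day. With mitochondrial share as a covariate the difference was 0.47 (adjusted p = 0.57), without the 4 libraries above 6% it was 0.71 (0.23), and without replicate 1 it was 0.69 (0.053). The part of mitochondrial share in this result was not tested further.

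Egr3 was the member called lower at day 1, at the edge of detection. Its 85%-labelled libraries held 0.162, 0.057 and 0 CPM, where a count of 3 would be 0.220 CPM in the library at 0, and its 21%-labelled libraries held 0.0586, 1.12 and 0.463 CPM. That is 3 counts against 27, a ratio of 0.129 with an exact 95% interval of 0.0250 to 0.418 that covers counting error only. One 21%-labelled library was as low as the other arm. The fitted adjusted p was 0.018, and it became 0.16 without 21%-labelled replicate 2 and 0.077 without 85%-labelled replicate 3. That 21%-labelled replicate 2 held 18 of the 27 counts. Its marker sums of squamous epithelium and skeletal muscle also stood apart, at 252 and 74.9 CPM. Elsewhere on day 1 these sums ran from 1.29 to 26.6 and from 6.67 to 27.3 CPM. The part of such tissue in the Egr3 call was not tested. With the mitochondrial covariate the fitted difference was -3.28 (adjusted p = 0.37) and without the 4 libraries above 6% it was -3.08 (0.24), beside -2.83 with all libraries and no covariate, so the call was lost while the difference was no smaller.

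The size of the label difference changed between days for 6 members, Egr1, Fos, Junb, Atf3, Dusp1 and Nr4a1, by an F test over the 5 days that called 37.6% of all genes. Adjusted p-values were 1.19e-05 for Egr1, 1.09e-05 for Atf3, 1.42e-04 for Junb and 0.0010 for Fos. Dusp1 and Nr4a1 followed at 0.0026 and 0.018. Atf3 alone of the members had called differences of opposite sign, higher with the 85% label at day 1 and lower at days 10 and 14. For Egr2, Fosb and Egr3 the change was not called (0.059, 0.084 and 0.26), nor for Jun (0.86).

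Within the 21%-labelled arm most of these genes stood higher at day 14 than at day 1, though not by a steady climb for each. Junb means were 60.8, 100, 61.1, 114 and 220 CPM on days 1, 3, 7, 10 and 14. Those of Dusp1 were 200, 247, 206, 238 and 425 CPM. Egr3, Fosb and Atf3 had higher means at day 10 than at day 14. A change between days was called for 9 members, all but Jun, against 56.3% of all genes. From day 1 to day 14, 9 members rose and 0 fell, against 9.04% of all genes called higher, with a median difference of 2.0 beside -0.03 over all genes. Egr1 went from 22.8 ± 2.72 to 154 ± 58.7 CPM (mean ± SD, n = 3), a rise of 2.76 (SE 0.28, adjusted p = 1.8e-07). Fos went from 7.11 ± 1.69 to 46.2 ± 21.7 CPM, a rise of 2.70 (SE 0.38, adjusted p = 1.0e-05). Nr4a1 rose by 2.16 (SE 0.39), Fosb by 2.05 (SE 0.35) and Egr2 by 1.96 (SE 0.40).

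Junb rose by 1.86 (SE 0.23), Atf3 by 1.46 (SE 0.27) and Dusp1 by 1.08 (SE 0.23), so the feedback phosphatase rose least of the called members. Egr3 rose by 2.05 (SE 0.67, adjusted p = 0.030), and lost the call without any one of day 1 replicates 1 and 3 or day 14 replicates 1 and 3 (adjusted p from 0.058 to 0.12). Jun differed by -0.12 (SE 0.16, adjusted p = 0.65).

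Within the 85%-labelled arm the course was mixed. A change between days was called for 5 members, Egr1, Egr3, Fosb, Atf3 and Dusp1, against 58.9% of all genes. From day 1 to day 14, 2 members rose and 2 fell, against 25.1% and 26.0% of all genes, and the members' median was 0.16. Atf3 fell from 22.4 ± 7.97 to 7.29 ± 0.838 CPM, a difference of -1.62 (SE 0.27, adjusted p = 6.8e-05). Dusp1 fell from 169 ± 17.2 to 113 ± 18.2 CPM, a difference of -0.58 (SE 0.23, adjusted p = 0.031), a call lost without 85%-labelled day 1 replicate 2 or 3 or day 14 replicate 2 or 3 (adjusted p from 0.052 to 0.13).

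Fosb rose from 1.99 ± 0.325 to 5.09 ± 1.62 CPM, by 1.35 (SE 0.35, adjusted p = 0.0024). Egr3 rose from 3 to 35 counts summed over the group, a ratio of 10.1 with an exact 95% interval of 3.17 to 51.1. Egr1 had its highest level of this arm at day 7, 31.3 ± 4.65 CPM, and stood at 16.1 ± 1.40 at day 1 and 13.9 ± 4.0 at day 14. With mitochondrial share as a covariate, 0 members were called, at differences of 3.64 for Egr3 (adjusted p = 0.13), 1.20 for Fosb (0.15), -1.07 for Atf3 (0.053) and -0.69 for Dusp1 (0.18). The fitted difference had been 3.19 for Egr3, so it was smaller with the covariate for Fosb and Atf3 and larger for Egr3 and Dusp1. Without the 4 libraries above 6%, of which 2 are in the 85%-labelled day 1 group, 1 member was called, Atf3. The comparisons over time use the same day 14 libraries as the comparison of the arms, and those of day 1.

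**Figure D3:**
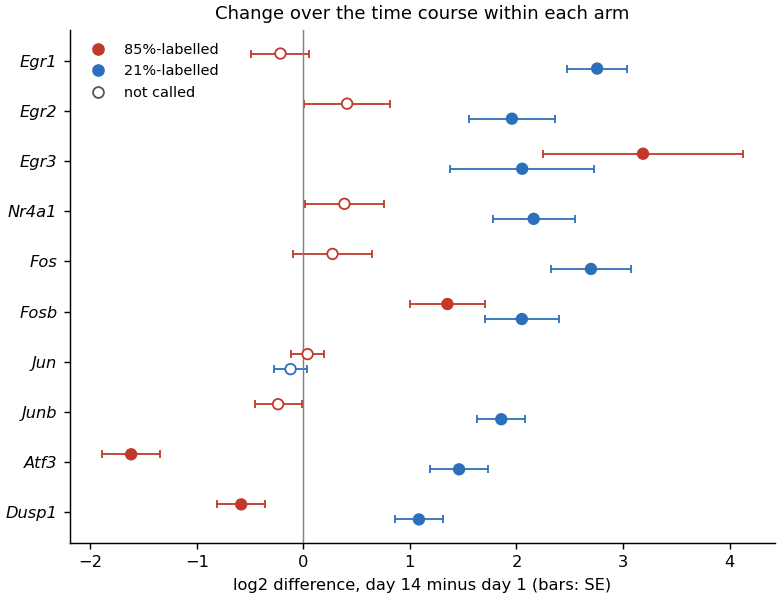
Log2 difference of day 14 from day 1 (x axis) for each gene (y axis) within the 21%-labelled (blue) and the 85%-labelled (red) arm, with bars of 1 SE and filled points where called. Blue points lie between 1.08 and 2.76 for all genes but Jun, and red points lie on both sides of 0.

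The order of the 10 group means was alike for most members at its top. The 21%-labelled day 14 group was highest for Egr1, Egr2, Nr4a1, Fos, Junb and Dusp1. For Egr1, Junb and Dusp1 its libraries did not overlap the next group, which was 21%-labelled day 10 for Egr1 and Junb and 21%-labelled day 3 for Dusp1. For Egr2, Nr4a1 and Fos it overlapped the 21%-labelled day 10 group that came next.

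For Egr3, Fosb, Atf3 and Jun the 21%-labelled day 10 group had the highest mean. For Egr3 and Fosb one library set it apart, with 8.30 and 18.8 CPM in replicate 3. Atf3 was the member whose early 85%-labelled groups came next, with 22.4 ± 7.97 CPM at day 1 and 20.9 ± 1.5 CPM at day 3 behind 31.5 ± 12.4 and 30.5 ± 3.40 CPM, neighbours whose libraries overlapped all along the order.

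The highest and lowest group means were 11.1-fold apart for Egr1, 9.66-fold for Fos, 6.15-fold for Nr4a1, 5.76-fold for Fosb and 4.58-fold for Egr2. They were 4.32-fold apart for Atf3, 3.92-fold for Junb and 3.76-fold for Dusp1. For Egr3 they were 59.7-fold apart, which rests on a lowest mean of 0.0729 CPM, from 3 counts in the group. Jun varied by only 1.25-fold, and its neighbouring groups overlapped along the whole order. The lowest group was 85%-labelled day 14 for Egr1, Junb, Atf3 and Dusp1, 85%-labelled day 1 for Egr2, Egr3, Fos, Fosb and Jun, and 85%-labelled day 7 for Nr4a1.

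Some libraries were the highest or lowest of their group for many members together. In the 21%-labelled arm, replicate 3 was the highest of the group for 8 of 10 members at day 10 and again at day 14, and replicate 2 was the lowest for 6 at day 14. In the 85%-labelled arm, replicate 3 was the lowest for 8 members at day 14. Others were split, such as 85%-labelled day 1 replicate 1, highest for 4 members and lowest for 5. Across the 45 pairs of members, Pearson's r of the log2 CPM over the 30 libraries had a median of 0.64 (0.17 to 0.89), highest for Egr1 with Fos. Of deviations from the group means the median was 0.29 (-0.17 to 0.78), highest for Nr4a1 with Dusp1. These correlations describe libraries that share groups, depth and tissue pieces, and carry no test.

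Beyond the members, other immediate early genes also stood lower at day 14. The list held 23 genes, 22 of them tested. At day 14, 11 were lower and 0 higher with the 85% label, where 10.8% of all genes were lower and 10.5% higher. Their median difference was -0.70 beside 0.0096 over all genes. Ccn1, a matrix-associated signalling protein, differed by -2.81 (SE 0.28, adjusted p = 1.0e-07), the small Maf factor Maff by -2.26 (SE 0.25, adjusted p = 3.3e-07), Ier3 by -1.82 (SE 0.23, adjusted p = 2.7e-06) and the growth factor-induced Myc by -1.49 (SE 0.20, adjusted p = 4.8e-06). The others called were Zfp36, Btg2, Csrnp1, Arc, Rhob, Nr4a3 and Sgk1. Jund, the Jun relative known for steady expression, differed by -0.13 (adjusted p = 0.57), next to the -0.03 of Jun.

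At day 10, 3 of the 22 were lower, Maff (-1.26, SE 0.24, adjusted p = 0.0036), Ier3 (-1.14, SE 0.23, adjusted p = 0.0053) and Ccn1 (-1.09, SE 0.27, adjusted p = 0.022), and 1 was called without 21%-labelled replicate 3. Of all genes, 1.18% were called lower at day 10. At days 3 and 7 edgeR and DESeq2 each called 0. At an unadjusted p under 0.05 there were 3 and 2 genes of the 22, and 1311 and 2976 of all 17571 genes tested. At day 1, 3 of the 22 were lower and 0 higher, where 20.8% of all genes were lower: Fosl2 (-2.95, SE 0.57), Klf6 (-2.78, SE 0.55) and Klf4 (-0.84, SE 0.31). With mitochondrial share as a covariate 0 of the 22 were called, and 0 without the 4 libraries above 6%, while DESeq2 called 5, as did the fit without 85%-labelled replicate 2.

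Among the kinases and promoter factors upstream, calls were few at day 10 and went both ways at day 14, as over all genes. At day 10, 1.75% of all genes were called higher and 1.18% lower. Of 21 genes of the ERK, JNK, p38 and SRF path and its feedback, 1 was higher and 0 lower at day 10, the repressor Elk3 (0.53, SE 0.12, adjusted p = 0.016). No gene of the 21 was called on the day's 6 libraries alone, without 85%-labelled replicate 3, or without 21%-labelled replicate 1 or 3, while 2 were called with the mitochondrial covariate and 2 without the 4 libraries above 6%. At day 14, 4 were lower and 2 higher, where 10.8% and 10.5% of all genes were, with a median of -0.12. The lower ones included feedback genes that are themselves induced by the path: the EGF receptor inhibitor Errfi1 (-1.09, SE 0.20, adjusted p = 2.1e-04), the Egr corepressor Nab2 (-1.08, SE 0.21, adjusted p = 5.1e-04) and the ERK phosphatase Dusp6 (-0.80, SE 0.16, adjusted p = 7.4e-04). Elk3 was higher (0.68, SE 0.12, adjusted p = 2.3e-04). Transcripts of the kinases Mapk3, Mapk8 and Mapk14 were not called at day 14, with differences of 0.10, 0.46 and -0.12. Transcript levels do not report kinase activity, which was not measured. At day 1, 8 of the 21 were lower and 1 higher, where 20.8% and 20.6% of all genes were, and the lower ones included Dusp4 (-2.44, SE 0.40), Spred1 (-2.53, SE 0.57) and Mapk8 (-1.58, SE 0.38). With the mitochondrial covariate 0 of the 21 were called at day 1, and 1 without the 4 libraries above 6%.

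**Figure D4:**
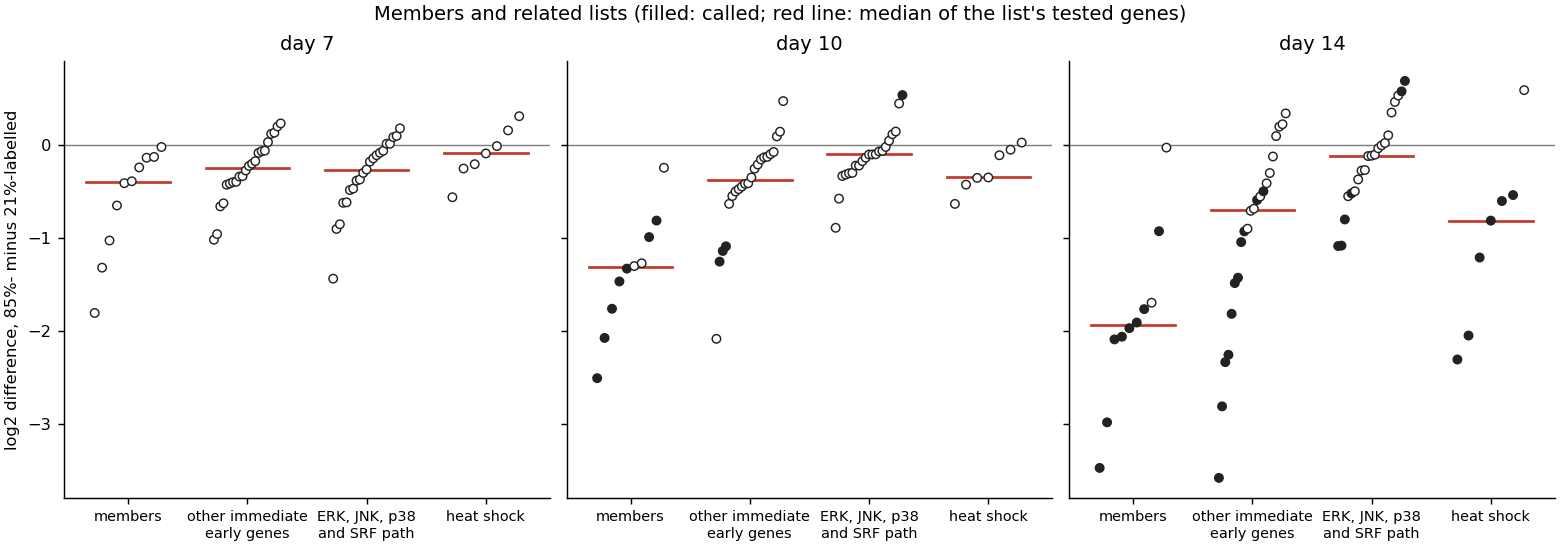
Log2 difference of the 85%-labelled from the 21%-labelled arm (y axis) for the 10 members, other immediate early genes, the upstream path and heat shock genes at days 7, 10 and 14. Each point is a gene, filled where called, and the red line is the list's median, which for the members is -0.40, -1.32 and -1.94.

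Heat shock genes, which like immediate early genes are known to respond to stress and tissue handling, moved with the members at day 14 and were not called at day 10. Of 7 tested, 6 were lower at day 14 with a median of -0.82: Hsph1 (-2.31, SE 0.27, adjusted p = 1.0e-06), Hspa8 (-1.21, SE 0.16), Hspa1b (-2.05, SE 0.41), Hspb1 (-0.82, SE 0.24), Bag3 (-0.61, SE 0.18) and Dnajb1 (-0.54, SE 0.11). Hsp90aa1 differed by 0.59 (SE 0.62). Of all genes tested, 10.8% were called lower at day 14. Hspa1b has a near-identical copy, so its own level is uncertain. Their summed level at day 14 was 593 to 677 CPM in the 85%-labelled and 1301 to 1344 CPM in the 21%-labelled libraries, and at day 10 it was 853 to 1134 against 962 to 1249 CPM. At day 10 edgeR and DESeq2 each called 0 of the 7, with 0 at an unadjusted p under 0.05. Of all 17571 genes tested, 1.18% were called lower at day 10 and 2688 had such a p. The day 10 median of the 7 was -0.35 (-0.64 to 0.02), below 0 like that of the members. The part of tissue handling in the members' differences was not tested.

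Markers of cell types moved with the labels too. Of all genes, 10.8% were called lower and 10.5% higher at day 14, and 1.18% and 1.75% at day 10. Of 10 macrophage markers, 9 were lower at day 14, all but Csf1r, with a summed level of 3832 to 5211 CPM in the 85%-labelled and 8957 to 10425 CPM in the 21%-labelled libraries. At day 10 edgeR called 0 of the 10, with 2 at an unadjusted p under 0.05, as had 2688 of all 17571 genes. The day 10 sums were 5131 to 8951 against 4370 to 6706 CPM. The median difference of the 10 markers at day 10 was -0.28 (-3.67 to 0.45), so the sums and the median went opposite ways. Of 4 tested endothelial markers, 3 were higher at day 14 (1793 to 2061 against 625 to 870 CPM) and 2 at day 10 (1611 to 1718 against 1166 to 1368 CPM). Of 5 heart muscle markers, 4 were higher at day 14 (190 to 991 against 33.5 to 137 CPM) and none was called at day 10.

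Of 5 lung epithelial markers, 2 were lower at day 14, the surfactant genes Sftpc and Sftpb, and the list summed to 13275 to 13738 against 18739 to 23868 CPM, so lung tissue was present in every group. Neutrophil markers summed to 39.4 to 205 against 52.5 to 99.2 CPM at day 10 and 60.3 to 70.6 against 42.6 to 87.0 CPM at day 14. The part of cell composition in the members' differences was not tested.

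The genes outside the list whose log2 CPM most resembled the members' mean standardised level over the 30 libraries were, among 14099 compared, Epha2 (Pearson's r 0.93), Ghitm (0.92), Svop (0.92), Rgs16 (0.91), Mmp10 (0.90), Ccng1 (0.90), Farsb (0.90) and Psmd2 (0.90). They share the 10 groups and their libraries with the members.

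The authors' deposited comparisons, which give the 21%-labelled over the 85%-labelled arm, can be set beside these. In the authors' deposited table, 9 members had an adjusted p under 0.05 at day 14 and 6 at day 10, each higher in the 21%-labelled arm. At day 7 there were 2, Nr4a1 and Egr1, and at day 3 none. At day 1 there were Atf3 and Egr1, with log2 fold changes of opposite sign (-0.98 and 0.54). These counts rest on the adjusted p alone, without the size threshold used above. The share of all genes that met it is not given here, so the counts cannot be weighed against it. In the authors' deposited table, Egr1 at day 14 had a log2 fold change of 3.47 and Jun 0.02.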

How the data were processed

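Raw counts per gene were deposited as whole numbers for 35224 genes in 30 libraries. The authors also deposited FPKM values, which are used here only to compare levels between genes, and log2 fold changes with p-values for pairs of groups, whose test no source used here names. Per the labels' protocols, RNA was taken with an RNeasy kit and libraries were made with a SMARTer mRNA kit. Aligner, counter, strandedness and rat build were not given in the sources used here, and the submitters' processing notes name the mouse builds GRCm38 and mm10 although the gene IDs are rat, so coordinates are printed as the deposited table gives them. How reads shared between copies or overlapping genes were handled is not given either.

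The count model was that of edgeR 4.0.16 (R 4.3.3): filterByExpr, TMM scaling and a robust quasi-likelihood fit with 1 mean for each of the 10 groups, which left 20 residual degrees of freedom. P-values were adjusted over the 17571 genes tested. Calls needed an adjusted p under 0.05 and a log2 difference of at least 0.5, a size the series text names, while F tests across days had no size threshold. The SE is the size of the difference divided by the square root of the F statistic, an approximation. Intervals and floors of counts cover counting error only. Correlations used log2 CPM with a prior count of 2.

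The members, the other lists and the rule for genes named beside the members were chosen with earlier results of these data known. Up to 4 genes with the smallest p were named from each of the lists of other immediate early genes and upstream genes at each day; Jund, the 3 kinases and the remaining called genes of the first list were named after their values were seen. A gene that meets this rule is not reported here and stays in the counts. Alternatives were DESeq2 1.42.0, RLE scaling, no filter on low counts, the replicate number as a block, mitochondrial share as a covariate, leaving out the 4 libraries above 6%, fitting only a day's 6 libraries and leaving out each library. The edgeR fit was tested on simulated data for part of its comparisons only. None of the 435 pairs of libraries was identical. Motifs were searched with a script in RefSeq promoters of GRCr8.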

Additional observations from a re-analysis of the deposited data

Results flagged for a closer look

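The difference between the labels was not the same on all days for 6 of the 10 members. They were called by the F test of the change between the 5 days in edgeR's quasi-likelihood fit, which called 37.6% of all genes. Adjusted p-values were 1.09e-05 for Atf3, 1.19e-05 for Egr1, 0.000142 for Junb, 0.00101 for Fos, 0.0026 for Dusp1 and 0.018 for Nr4a1. For Egr1 the difference ran from 0.02 at day 3 to -3.47 at day 14, and for Atf3 from 1.01 at day 1 to -2.06 at day 14. With mitochondrial share as a covariate the day 1 difference of Atf3 was 0.47 and was not called (adjusted p = 0.57). No group has more than 3 libraries, so a library far from the others of its group was not looked for by a test.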

How the results depend on the processing

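Without 1 library at a time, members called ranged from 1 to 3 at day 1, 0 to 1 at day 7, 3 to 7 at day 10 and 7 to 8 at day 14. In the 85%-labelled arm they ranged from 3 to 5 for a change between days and from 3 to 4 for day 14 against day 1. With mitochondrial share as a covariate the counts were 0 at day 1, 1 at day 7, and in the 85%-labelled arm 2 for the change between days and 0 for day 14 against day 1. Without the 4 libraries above 6% they were 0, 0, 2 and 1. Of all genes, 7278 were called at day 1, 27 with the covariate and 253 without those libraries. Fitted on a day's libraries alone, 1 member was called at day 1 and 0 at day 10. DESeq2 called 2 members at day 7 and 9 on each of days 10 and 14. Of all genes it called 220, 730 and 4053 on these days, where edgeR called 15, 515 and 3728. The counts for days 3 and 14, for the change of the label difference, and for the 21%-labelled arm over time moved by no more than 1.5 times in the alternatives run. The cause of these shifts was not tested.

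Nothing in the labels says that a replicate number marks a shared animal, litter or day. Deviations of same-numbered libraries from their group means correlated at r from -0.26 to 0.48, above 0.1 in 8 of 15 pairs, so the numbers were not taken to pair the samples throughout. The days differed: same-numbered libraries correlated best with each other at day 3 (r 0.14, 0.11 and 0.30) and day 7 (0.12, 0.0997 and 0.13), a hint from the data, and did not for every number at days 1, 10 and 14. With the replicate block, 2 members were called at day 1, 0 at days 3 and 7, 5 at day 10 and 7 at day 14. Egr3 and Dusp1 at day 10 and Fosb at day 14 lost their calls (adjusted p = 0.059, 0.064 and 0.056).

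Over called differences of single members and their alternatives, 322 values kept the call, 54 lost it and 0 changed sign. A sign changed only for differences that were not called. Without 1 library at a time, day 3 values ran from -0.12 to 0.20 for Egr1, -0.85 to 0.24 for Egr3, -0.33 to 0.25 for Fos, -0.11 to 0.29 for Fosb and -0.11 to 0.070 for Jun. Day 7 values ran from -0.20 to 0.090 for Egr2, -0.28 to 0.071 for Jun, -0.12 to 0.21 for Junb and -0.43 to 0.056 for Atf3. Egr2 ran from -0.56 to 0.15 at day 1 and Jun from -0.18 to 0.076 at day 14. For day 14 against day 1 in the 85%-labelled arm, Fos ran from -0.069 to 0.72 and Jun from -0.094 to 0.19. With the covariate, day 1 values turned to 0.78 for Egr2, 0.49 for Fos and 0.019 for Jun, and day 14 against day 1 in the 85%-labelled arm to -0.62 for Egr2, -0.79 for Fos and -0.17 for Jun. Without the 4 libraries, values turned to 0.17 for Egr2 and 0.015 for Fos at day 1, 0.11 for Jun at day 3, 0.013 for Junb at day 7, and -0.29 for Fos and -0.058 for Jun over time. Fos at day 1 was called without 85%-labelled replicate 2 (-0.996, adjusted p = 0.043). Depth limits Egr3, Egr2 and Fosb most, whose lowest libraries held 0, 10 and 22 counts.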
